A study of Mus musculus with 2 samples.

Results

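The genes of the cytosolic ribosomal proteins, the protein subunits of the ribosome that translates mRNA outside mitochondria, were described in RNA bound to chromatin of mouse macrophages. They were chosen by name as the genes whose symbol starts with Rpl, Rps or Rplp and a digit, or is Rpsa, and that have a transcript annotated as protein coding, with the Rps6k kinase genes left out. The rule found 92 of 55450 annotated genes, of which 21951 were protein coding. The members comprised 77 core genes, 46 for the large and 31 for the small subunit, along with 8 paralogs, 6 genes whose symbols name them as pseudogenes, and Rps19bp1, which encodes a protein that binds Rps19 and is no subunit of the ribosome. Subunits with other names, such as Fau and Rack1, were not members.

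Bone-marrow-derived macrophages are phagocytes grown in culture from marrow precursors, here of the mouse strain C57BL/6J, whose sex and age were not collected. All cells belonged to 1 group, which had received lipid A, the part of bacterial lipopolysaccharide that Toll-like receptors sense, at 100 ng/ml over 12 h, had then been kept without it for 12 h, and had received 100 ng/ml once more, for 75 min. Chromatin-bound RNA depleted of ribosomal RNA was sequenced in 2 libraries, replicate 1 made from 250 ng and replicate 2 from 500 ng of RNA. The labels give both libraries a size range of 250 to 400 bases. Both libraries carry the same donor entry, the labels do not say that the cells came from separate cultures, and cells without lipid A or before the second dose were not analysed here, so the values are levels in restimulated cells and the spread is that between these 2 libraries, which may be technical.

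A ribosome holds 1 copy of nearly every one of its proteins, and their genes are transcribed at high rates in growing cells. Most of their mRNAs begin with a run of pyrimidines, C or T in the DNA, called a terminal oligopyrimidine tract, through which the mTOR kinase and the RNA-binding protein Larp1 control translation. Many of their introns carry small nucleolar RNAs, short RNAs that guide the modification of ribosomal RNA and are cut out of the host intron, and mammalian genomes contain many retrotransposed copies of ribosomal protein mRNAs, most of them pseudogenes.

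The tract and the start of transcription are shown first, since the class of genes is defined by them in textbooks. Of the 92 members, 66 had a RefSeq promoter window, and their 78 annotated starts on GRCm38.p6 were read in the direction of the gene, each line below giving 12 bases before the annotated start and 18 from it on. Capitals mark the unbroken run of C and T through the start base, and a run may go on beyond the window. The 6 members shown have the highest levels in these libraries among those with a run of at least 7, and Rpl7a has the longest run, of 21 bases. The windows are chr7:3704029-3704058 (plus strand) for Rps9, chr3:130730320-130730349 (minus) for Rpl34, chr7:109519183-109519212 (plus) for Rpl27a, chr14:24490666-24490695 (plus) for Rps24, chr2:26910795-26910824 (plus) for Rpl7a and chr17:33955648-33955677 (minus) for Rps18.
Rps9: gccttgTCTCTCTTTgtctcgggcctgagt
Rpl34: TCCTTTTCCTCTTCCggggacggtgctcag
Rpl27a: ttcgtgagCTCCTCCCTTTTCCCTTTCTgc
Rps24: gcgctggggTCCTTCCTTgcgcgttgatat
Rpl7a: CCCTCTTCTTTCTTTCTCCagcagccgagc
Rps18: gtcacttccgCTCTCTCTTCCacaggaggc

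In 19 of the 78 member windows (24.4%) a run of at least 7 pyrimidines held the start base, against 1734 of all 32851 windows (5.28%). The start base was C in 29.5% of member windows and in 16.3% of all windows. A run of at least 8 pyrimidines lay somewhere between 40 bases before and 50 bases after the start in 74.4% of member windows and in 32.5% of all windows. Rpl10, the member of highest level, had none at its RefSeq start, and its window reads, at chrX:74270804-74270833 (plus strand):
Rpl10: gttacagtggaagataggccgcctatataa

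Over the first 10 bases from the start on, 58.7% of member positions and 47.1% of positions in all windows were pyrimidines. Farther down, from 10 to 39 bases after the start, the shares were 54.4% and 48.1%. Windows in which the annotated start lies a few bases from the tract do not count as holding it at the start, so these shares depend on the annotated starts.

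**Figure D1:**
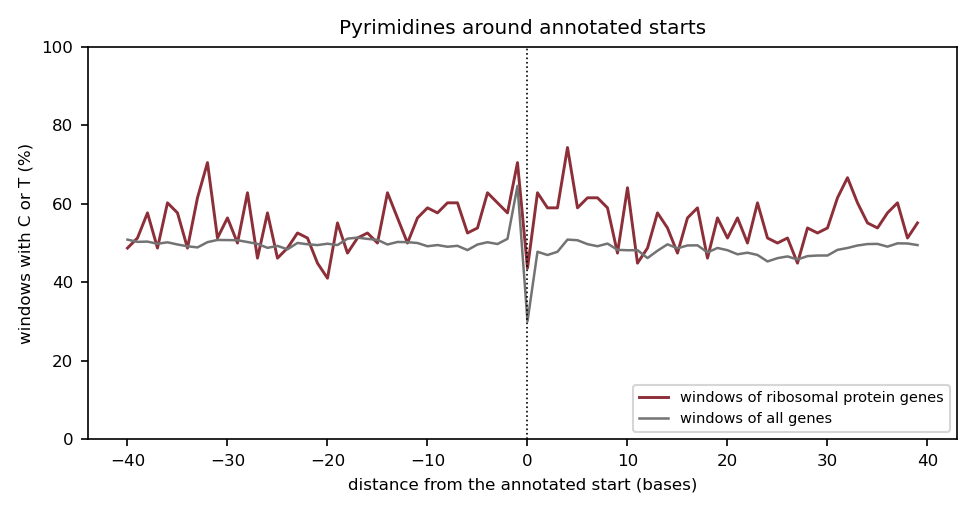
Percentage of promoter windows with C or T at each base from 40 before to 39 after the annotated start (position 0, dotted), for the 78 windows of ribosomal protein genes and for all 32851 windows of RefSeq on GRCm38.p6. Over the first 10 bases the mean of the member line is 58.7%, against 47.1% for all windows, though at the last of them it lies lower, at 47.4% against 48.3%.

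Of the promoter motifs searched in the 300 bases from 250 before to 50 after the start, on both strands, CCGGAAG, the core that factors of the ETS family bind, was in 34.6% of member windows and in 8.86% of all windows. GGGCGG, which SP factors bind, was in 60.3% of member windows and 35.7% of all. AAGATGG, the core of the YY1 motif, was in 15.4% of member windows and 6.34% of all. The TATA box letters TATAAA were in 8.97% of member windows and 13.6% of all windows. Among the 57 core genes with a window, the median level was 18.5 TPM in the 24 with CCGGAAG and 21.6 TPM in the 33 without it, and 17.1 TPM in the 35 with GGGCGG and 24.5 TPM in the 22 without it. The 19 core genes with a run of 7 through the start had a median of 18.4 TPM, against 19.9 TPM in the other 38. A match is a description of letters in the window and shows no binding.

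In these libraries every core gene was present, at levels that spanned little more than 1 order of magnitude. TPM gives the share of a transcript among all entries of a library after division by its effective length, scaled to a fixed total, and so can be set side by side between genes. At least 1 TPM in both libraries was reached by 82 of the 92 members, where 40.2% of all protein-coding genes did so, and by 77 of 77 core genes. The median core gene had 19.0 TPM in replicate 1 and 17.1 TPM in replicate 2 (18.4 ± 1.32 TPM, SD between the medians, n = 2). In both libraries 61 core genes reached 10 TPM, with no share over all genes set beside that count. Protein-coding genes other than the members that reached 1 TPM in both had a median of 9.30 ± 0.297 TPM, and 69 of the 77 core genes lay above the median of expressed protein-coding genes. In counts the order was reversed, with a median of 155 in core genes and 294 in those other genes. The median effective length was 517 bases in core genes and 1984 bases in the others, so the higher core level holds only after division by length. The lowest and the highest core gene were 23.9-fold apart, and the SD of log2 TPM over core genes was 0.95, against 1.92 over protein-coding genes at 1 TPM. In sum the 92 members held 19842 of the expected counts in replicate 1, or 0.108% of the library (95% Wilson interval 0.106% to 0.109%), and 17013 in replicate 2, or 0.0965% (0.0950% to 0.0979%).

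The highest members came from both subunits. Rpl10 (ENSMUSG00000008682.13, chrX:74270812-74273135, plus strand), which lies beside the site where tRNAs enter the large subunit, had 100.1 TPM in replicate 1 and 84.4 TPM in replicate 2. Rps9 (ENSMUSG00000006333.14, chromosome 7), which binds the ribosomal RNA of the small subunit directly, had 99.99 and 74.5 TPM. Rpl10 and Rps9 did not differ beyond their spread, at 92.2 ± 11.1 and 87.3 ± 18.003 TPM (SD, n = 2), and in each library both lay above every other member. Next came Rpl23, with 49.1 TPM in replicate 1 against 70.2 TPM in replicate 2, and Rpl5, which binds the smallest rRNA of the large subunit together with Rpl11, at 53.8 and 52.2 TPM. The ranges of Rpl23 and Rpl5 overlapped. Below them followed Rps2 (41.6 ± 2.33 TPM), Rpl3 (41.5 ± 9.46), Rpl9 (40.9 ± 3.36), Rps12 (40.4 ± 0.382), Rpl6 (38.4 ± 1.99) and Rpl34 (38.1 ± 1.23). Neighbours among them had overlapping ranges, except that Rps12 (40.1 and 40.7 TPM) lay above Rpl6 (39.8 and 37.0 TPM). Rpl11 itself stood at 29.1 and 27.5 TPM.

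Among the 5 lowest core genes, Rps16 had 4.13 TPM in replicate 1 and 3.58 TPM in replicate 2, from 36 and 25.9 counts. Rpl36a had 3.91 and 4.64 TPM, Rpl39, which lines the exit tunnel of the large subunit, 6.39 and 3.46 TPM, Rpl29 5.25 and 4.96 TPM, and Rps26, which contacts mRNA, 5.48 and 5.19 TPM. These 5 genes had between 16 and 49.6 counts in a library, so their order is not resolved. The stalk that recruits translation factors is made of Rplp0, Rplp1 and Rplp2, genes chosen here for their role, and they stood at 15.2 and 13.4, 8.48 and 10.6, and 18.3 and 15.9 TPM. Rps6, the substrate of the Rps6k kinases, had 21.9 and 17.1 TPM, and Rps27a, made as a fusion with ubiquitin, 40.1 and 34.5 TPM, both again chosen for their role.

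**Figure D2:**
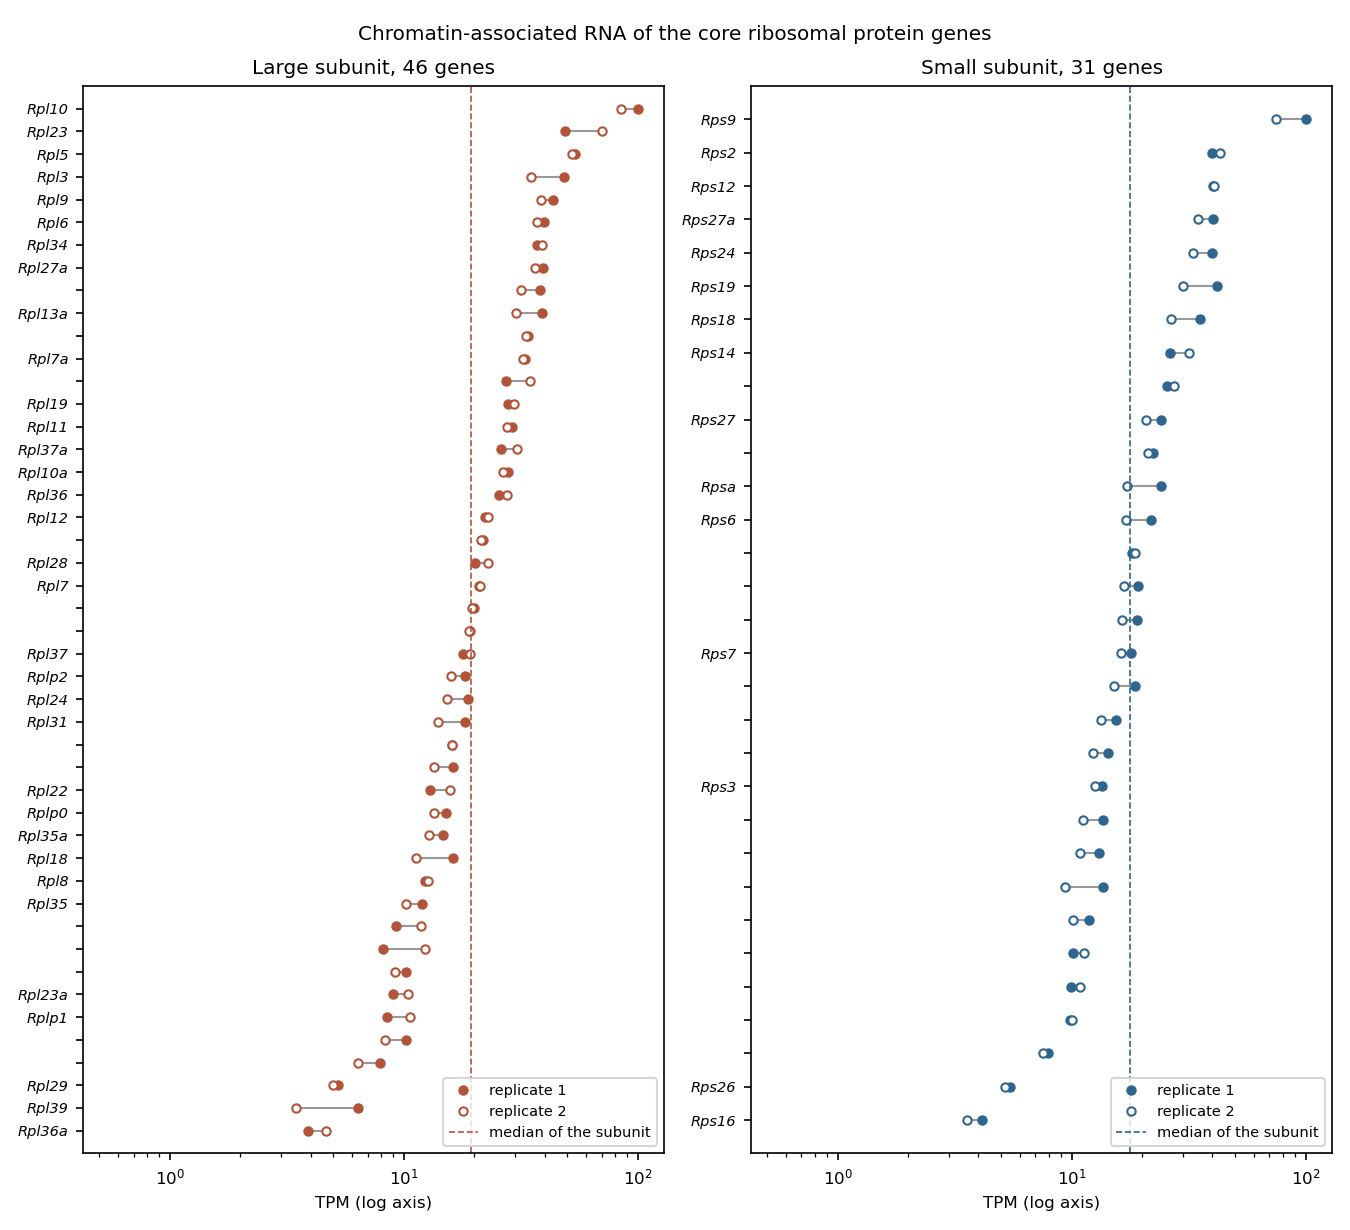
TPM (log axis) of the 46 large-subunit and 31 small-subunit core genes in replicate 1 (filled) and replicate 2 (open), ordered by mean, with the median of each subunit dashed and the genes named in the text labelled. Rpl10 and Rps9 are highest in both libraries, though in replicate 2 Rps9 (74.5 TPM) lies close to Rpl23 (70.2 TPM), and Rpl36a and Rps16 are lowest.

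Large-subunit and small-subunit genes had similar levels. Core large-subunit genes had a median of 19.5 TPM in replicate 1 and 19.4 TPM in replicate 2, and core small-subunit genes 18.7 and 16.4 TPM. The log2 ratio of the medians, large over small, was 0.06 in replicate 1 and 0.24 in replicate 2. Over all 92 members, with paralogs and copies included, the ratio was -0.14 and -0.10 in the libraries, so the sign depends on which genes are counted. No test of the difference was made.

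Paralogs had lower levels than their parents in both libraries, with 1 exception. The 8 paralogs had a median of 2.26 TPM, and 3 of them reached 1 TPM in both libraries. Rpl7l1, a relative of Rpl7, had 7.45 and 8.15 TPM, where Rpl7 had 21.1 and 21.3 TPM. Rpl22l1 had 8.24 and 6.12 TPM, where Rpl22 had 12.9 and 15.8 TPM. Rpl36al was the exception, with 1.74 and 5.06 TPM from 17.7 and 30.99 counts beside Rpl36a at 3.91 and 4.64 TPM, and their ranges overlapped. Rps27l, a target of p53, had 6 and 4 counts (1.44 and 0.80 TPM). Rpl3l, the heart and muscle form of Rpl3, and Rpl39l, a form known from testis, had 2 counts each in replicate 1 and 0 in replicate 2, and Rpl10l, the testis form of Rpl10, had 0 in both. With Rpl36-ps4 and Rpl36a-ps1, also at 0 in both, they were the 5 lowest members. Where none was counted, as many as 3 counts are still possible, which is 1.63e-05% of the counts of replicate 1 and 1.70e-05% of those of replicate 2 (counting error only).

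Rps27rt, a gene of a single exon with the retrotransposed sequence of Rps27, could not be told apart from its parent by coding sequence. It had 1.03 counts in replicate 1 and 36.6 in replicate 2 by the alignment-based program, and 0 in both by the alignment-free program, while Rps27 had 71.0 and 68.4 counts. Over 255 coding bases Rps27rt and Rps27 had 0 differences, and Rps27l had 61 (76.1% identity). The first 90 coding bases are shown to let the copies be seen beside the parent, with capitals where a copy has another base than Rps27. The genes lie at chr9:114982366-114982739 (minus strand) for Rps27rt, chr9:66946086-66949516 (plus) for Rps27l and chr3:90212522-90213651 (minus) for Rps27.
Rps27rt: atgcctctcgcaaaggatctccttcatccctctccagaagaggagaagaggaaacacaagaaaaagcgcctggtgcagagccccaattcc
Rps27l: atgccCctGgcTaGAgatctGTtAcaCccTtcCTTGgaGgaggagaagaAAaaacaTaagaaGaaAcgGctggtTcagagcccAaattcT
Rps27: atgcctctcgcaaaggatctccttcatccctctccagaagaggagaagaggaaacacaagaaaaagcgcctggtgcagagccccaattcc

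The stretch holds 24 of the 61 differences of Rps27l and none of Rps27rt, so a read from the coding part of the Rps27rt gene matches Rps27 as well. Of the 6 members named as pseudogenes, Rpl10-ps3 had a coding sequence identical to that of Rpl10 over 645 bases and Rps12-ps3 one identical to that of Rps12 over 399 bases. Rpl9-ps6 differed from Rpl9 at 1 of 579 bases. Rpl10-ps3 had 3.86 and 2.94 TPM, was the only 1 of the 6 at 1 TPM in both libraries, and its posterior SD came to 27.7% of its count. Rpl36al differed from Rpl36a at 39 of 321 coding bases, Rpl39l from Rpl39 at 23 of 156, and Rpl10l from Rpl10 at 98 of 645.

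A further 292 entries under ribosomal protein names, annotated as pseudogenes and without a coding transcript, are not members. They held 896 expected counts in replicate 1 and 940 in replicate 2, or 4.32% and 5.24% of the counts of members and copies together, and 7.11% and 8.37% by the alignment-free program. Rpl36-ps2, chosen after its values were seen, had 68.1 and 97.4 TPM, above its parent gene Rpl36 at 25.6 and 27.6 TPM. Of the 31-base words in the transcripts of Rpl36, 94.1% also occurred in transcripts of other genes. In Rpl8, another core gene, 6.16% did.

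The posterior SD of the count is the alignment-based program's own measure of how uncertain the assignment of reads is. It exceeded 10% of the count in 0 of 55 members with a mean of at least 100 counts, where 0.326% of protein-coding genes did, a share so low that the 0 says nothing particular about the members. At a mean of at least 10 counts it did so in 3 of 83 members, Rpl10-ps3 (27.7%), Rps27rt (12.3%) and Rpl24 (10.2%), with no share over all genes set beside it. Across core genes Spearman's rho between the posterior SD and the share of shared words was 0.51 (n = 77 genes of the same 2 libraries, which are not independent).

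A large share of the chromatin-bound RNA of these genes was assigned to transcripts with a retained intron. Such annotated transcripts keep an intron that the coding transcripts splice out. They made up 50.9% of the members' summed TPM in replicate 1 and 47.9% in replicate 2 (49.4% ± 2.12, SD, n = 2), against 37.8% ± 0.241 in other protein-coding genes at 1 TPM. By TPM the share was not particular to ribosomal protein genes, at 48.4% ± 2.16 in 16 other genes of the oligopyrimidine class and 43.0% ± 3.06 in 78 genes of the mitochondrial ribosome. By expected counts the shares were 52.4% ± 1.84 in members and 25.02% ± 0.647 in the other protein-coding genes. They were lower than in members in both related classes, at 30.4% ± 2.01 in the oligopyrimidine class and 40.9% ± 0.0377 in the mitochondrial ribosome. By the alignment-free program members had 42.8% ± 2.07 and the other protein-coding genes 34.8% ± 0.247 of TPM, with 49.4% ± 3.58 in the oligopyrimidine class and 26.1% ± 0.953 in the mitochondrial ribosome. An annotated transcript of this class was present in 65 of the 84 members with a mean of at least 1 TPM, where 64.7% of protein-coding genes at that level had one. In 42 of these 65 members it held over 50% of the TPM, where 41.8% of protein-coding genes with one did so. Coding transcripts held 36.3% ± 1.66 of the members' TPM against 49.7% in the others.

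By the alignment-based program the subunits had overlapping shares. Core large-subunit genes had 51.7% and 48.2% of their TPM in retained-intron transcripts, and core small-subunit genes had 50.6% and 49.6%. The difference over all members, large minus small, was 0.90 percentage points in replicate 1 and -0.27 in replicate 2. By the alignment-free program the libraries did not overlap, at 43.3% and 39.4% in core large-subunit genes and 46.9% and 45.6% in core small-subunit genes, and the difference over all members was -4.88 percentage points, so whether the subunits differ depends on the program.

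Single genes ranged from nearly all to little. Rpl5 had 94.7% of its TPM in retained-intron transcripts in replicate 1 and 93.4% in replicate 2. Rpl3, which lies near the site where peptide bonds form, had 96.0% and 89.1%, Rps26 85.4% and 100%, Rpl36a 97.4% and 82.7%, and Rpl10a 86.0% and 93.3%. Rps26 and Rpl36a are among the lowest core genes, so their shares rest on few counts. A coding transcript of Rps26 had 5.83 counts in replicate 1 and 0 in replicate 2. Among members with an annotated retained-intron transcript the lowest shares were in Rps27l (0% in both), Rplp0 (18.7% and 11.9%), Rpl31 (17.3% and 17.8%), Rpl7l1 (9.81% and 25.9%) and Rpl23a (14.1% and 28.6%). Across the 61 core genes that have such a transcript the share in replicate 1 went with that in replicate 2 at a Spearman's rho of 0.87, and the shares by both programs went together at 0.72. Rpl35a was the member whose share depended most on the program, with 91.7% and 79.5% by the alignment-based and 20.9% and 16.8% by the alignment-free program.

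Transcripts of the class called processed transcript, which have no coding frame in the annotation, held 12.7% ± 0.296 of the members' TPM against 8.37% in the others. By expected counts the shares were 7.85% ± 0.560 and 3.22% ± 0.0696. By the alignment-free program they were 14.8% ± 0.513 and 15.4% ± 0.121 of TPM, so a higher TPM share in members depends on the program. By the alignment-based program, processed transcripts made up most of the RNA of several members without an annotated retained-intron transcript, chosen after their values were seen. Rpl23 had 81.7% and 85.9% of its TPM there, Rpl11 84.8% and 86.6%, Rpl35 92.6% and 86.0%, Rps6 85.5% and 79.5%, Rps27a 78.7% and 69.4%, and Rpl7a 79.0% and 73.9%. Transcripts marked for nonsense-mediated decay, in which a premature stop leads to breakdown, held 1.56% ± 0.163 of the members' TPM against 4.15% ± 0.0198 in the others. Such a transcript was annotated in 17 of the 77 core genes and in 2826 of the 8739 other protein-coding genes at 1 TPM, so the shares also depend on the annotation. Rpl12 had the highest share among the core genes, 18.5% and 36.1%.

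**Figure D3:**
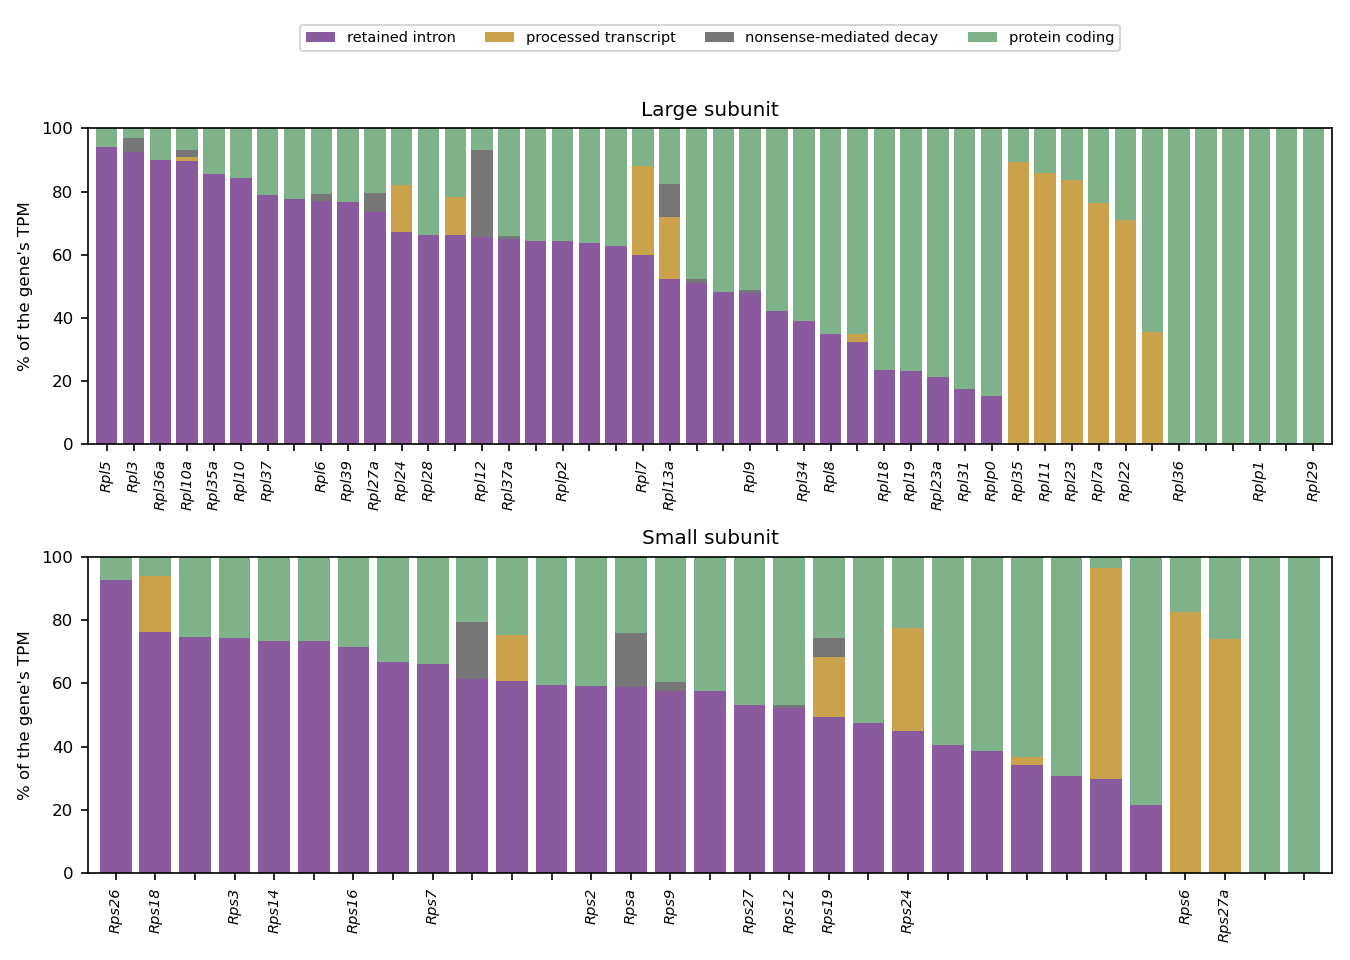
Share of each core gene's TPM (%, mean of the libraries) in transcripts annotated as retained intron, processed transcript, nonsense-mediated decay and protein coding, for the large subunit (upper) and the small subunit (lower), ordered by the retained-intron share and labelled where the text names the gene. Rpl5 and Rps26 lead their subunits, Rps26 from few counts, and the genes at the right without violet have no such transcript in the annotation.

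Within the bounds of 30 core genes, 20 of the large and 10 of the small subunit, lay 58 annotated small nucleolar RNAs on the strand of the gene. Their place in introns was not checked. Host genes had a median of 21.2 ± 1.202 TPM and the other 47 core genes 17.1 ± 1.41 TPM. Retained-intron transcripts made up 61.6% and 56.2% of the TPM of hosts, and 43.0% and 42.5% of that of core genes that host none, so the ranges of the libraries did not overlap. By the alignment-free program the shares were 54.3% and 49.9% in hosts and 39.02% and 37.0% in the others. In 20 hosts 27 of the 82 retained-intron transcripts contain a small nucleolar RNA inside an exon. Those 27 held 20.4% of the hosts' TPM in replicate 1 and 18.5% in replicate 2, and the other retained-intron transcripts of hosts 41.2% and 37.7%. Whether reads of the small RNA itself were counted to such transcripts was not tested.

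Small nucleolar RNAs of 4 hosts, chosen after their values were seen, are shown, with the first TGATGA, the core letters of the C box, and the last CTGA, the D box, in capitals, the pair of motifs that names the C/D class. Sequences are those of the GENCODE M21 transcripts. Snord21 lies within Rpl5 at chr5:107904555-107904648, Snord15b in Rps3 at chr7:99479563-99479707, Snord83b in Rpl3 at chr15:80078498-80078591 and Snord32a in Rpl13a at chr7:45127382-45127464.
Snord21: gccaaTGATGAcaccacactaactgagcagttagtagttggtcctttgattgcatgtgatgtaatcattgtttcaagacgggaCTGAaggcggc
Snord15b: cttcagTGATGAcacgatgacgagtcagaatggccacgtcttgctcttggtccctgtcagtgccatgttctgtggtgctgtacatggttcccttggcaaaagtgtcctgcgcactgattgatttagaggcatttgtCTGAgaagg
Snord83b: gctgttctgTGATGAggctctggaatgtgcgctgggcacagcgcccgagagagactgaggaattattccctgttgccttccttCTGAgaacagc
Snord32a: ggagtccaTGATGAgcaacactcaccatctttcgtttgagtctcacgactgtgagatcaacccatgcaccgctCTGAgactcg

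Which of them had counts depended on length and program. The 37 of up to 125 bases had an effective length of 0 in the alignment-based tables and 0 counts there, while those from 129 bases on had one above 0. Snord21, of 94 bases, had 0 counts in both libraries by the alignment-based and 406 and 607 by the alignment-free program. Snord15b, of 145 bases, had 1621 and 1365 by the alignment-based and 1883 and 1597 by the alignment-free program. Snord15a, of 148 bases and likewise in Rps3, had 558 and 400 by the alignment-based and 688 and 497 by the alignment-free program. Their host Rps3 had 498 and 433 counts by the alignment-based program. Snord83b had 164 and 108 and Snord32a 147 and 137 counts by the alignment-free program and 0 by the other. At least 1 count in both libraries was reached by 10 of the 58 by the alignment-based and by 42 by the alignment-free program. In Rps3 the retained-intron transcripts that contain a small nucleolar RNA held 54.4% and 57.3% of the gene's TPM.

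The libraries gave closely similar values for these genes. The log2 ratio of replicate 1 over replicate 2, on expected counts scaled by TMM, which assumes that most genes are level, had a median of 0.03 and an SD of 0.26 over the 82 members with at least 10 counts in each library. None of the 82 was past 2-fold, where 7.25% of all genes and 6.45% of protein-coding genes with that many counts were (3.3% higher in replicate 1 and 3.15% higher in replicate 2). Higher in replicate 1 were 45 of the 82, where 53.1% of protein-coding genes were. For 68 of the 82 the ratio lay within 2 standard errors from counting alone, with no share over all genes set beside it.

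Among members with a mean of at least 100 counts, the ratio was highest in Rpl3, with 1060 counts in replicate 1 against 669 counts in replicate 2 and a log2 ratio of 0.54 (counting SE 0.07). Rps9 had 979.9 and 656 counts (0.45, SE 0.07), Rpsa, also known as the laminin receptor, 277 and 186 (0.45, SE 0.14), Rps18 250.0 and 179.8 (0.35, SE 0.14), and Rpl18 433 and 315 (0.33, SE 0.11). In the other direction Rpl23 stood apart with 349 counts in replicate 1 and 486 in replicate 2 (-0.60, SE 0.10). Rps14 had 254 and 284 counts (-0.29), Rpl19 183 and 203 (-0.28), Rpl37a 133 and 145 (-0.25), and Rpl37 138 and 146 (-0.21). Core small-subunit genes had a median ratio of 0.08, with 21 of 31 higher in replicate 1, and core large-subunit genes -0.02, with 22 of 46.

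**Figure D4:**
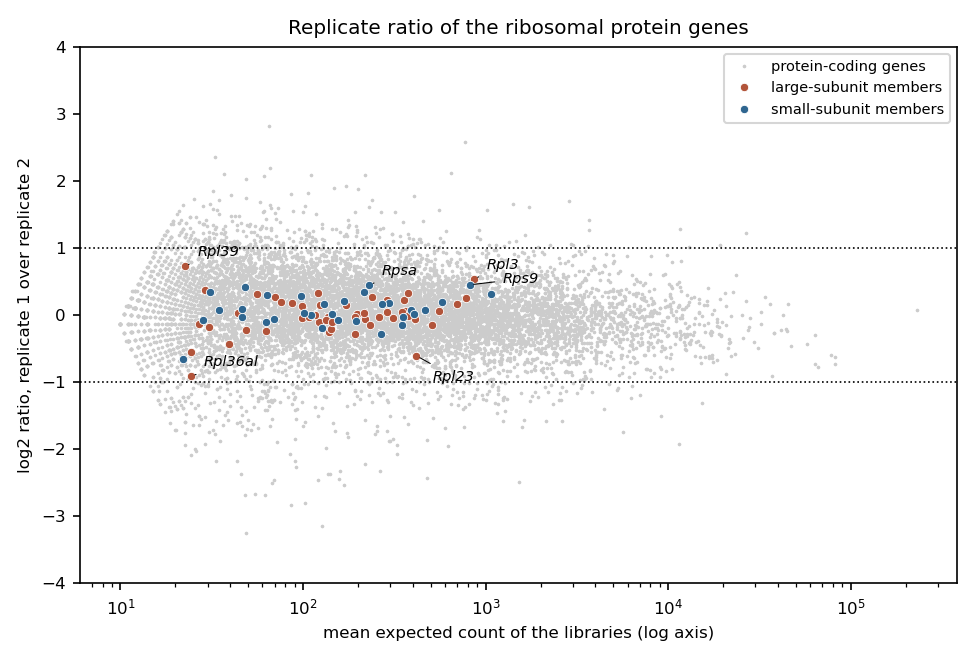
Log2 ratio of replicate 1 over replicate 2 (TMM-scaled) against the mean expected count (log axis) for the 82 members with at least 10 counts in each library and for protein-coding genes with as many (grey), with 2-fold dotted. All 82 members lie between the dotted lines, with Rpl3 (0.54) and Rpl23 (-0.60) outermost among those with at least 100 counts.

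Between the programs the members differed more than between the libraries. The alignment-based and the alignment-free TPM of core genes went together at a Spearman's rho of 0.80 (n = 77), and those of the 2 libraries at 0.97. Past 2-fold between the programs were 7 of 82 members, where 17.8% of protein-coding genes at 1 TPM were. The 7 were all lower by the alignment-based program, the direction of 17.6% of protein-coding genes, and 0 were higher, the direction of 0.283%. Rpl39 had 6.39 and 3.46 TPM by the alignment-based and 19.5 and 19.0 TPM by the alignment-free program (log2 ratio of the means -1.97). Rpl35a, whose retained-intron share also moved, had 14.8 and 12.8 TPM against 50.9 and 48.5 TPM (-1.85). Rpl36 had 25.6 and 27.6 against 70.5 and 106.8 TPM (-1.74), Rpl36a 3.91 and 4.64 against 12.2 and 14.7 TPM (-1.66), and Rps7 17.9 and 16.3 against 48.7 and 47.6 TPM (-1.49). Rpl24 and Rps16 were the other two. For these 7 genes the level depends on the program by that factor, and Rpl36 was number 26 of the 92 members by the alignment-based and number 1 by the alignment-free program. A shift in this direction was not particular to them. Protein-coding genes other than the members at 1 TPM had a median of 9.30 TPM by the alignment-based and 13.4 TPM by the alignment-free program. How much of each factor is this common shift was not tested.

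**Figure D5:**
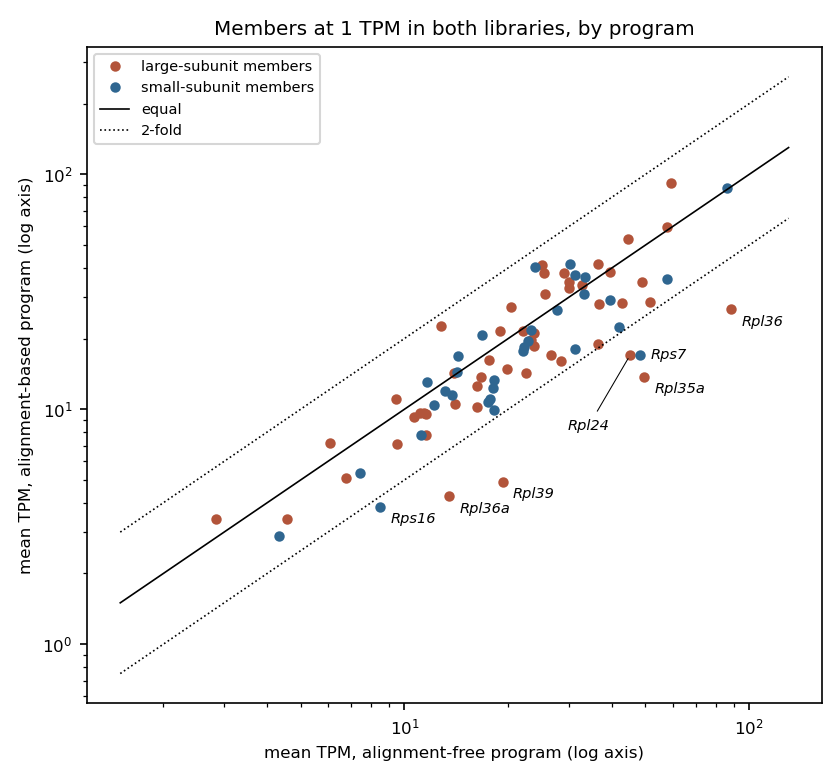
Mean TPM by the alignment-based program against mean TPM by the alignment-free program (both log axes) for the 82 members at 1 TPM in both libraries, with equality solid and 2-fold dotted. The 7 labelled genes lie below the lower dotted line, Rpl36 farthest to the right.

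Overlap with genes on the other strand could add to some members. In the annotation 25 of the 92 members overlap an antisense gene, and in 10 of them the partner had more counts than the member. No share over all genes was set beside these counts, so they say nothing particular about the members. Rps18 (250.0 and 179.8 counts) overlaps Vps52 with a mean of 486 counts, Rpl28 (102 and 96.2) overlaps Ube2s with 570, and Rpl31 (140 and 102) overlaps Tbc1d8 with 313, members chosen here for their partner. Whether strand was used in counting is not stated in the labels or headers used here, and reads of such pairs cannot be told apart.

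The genes of the mitochondrial ribosome, of RNA polymerase I, of ribosome assembly and of regulation had a lower median TPM than the core genes, and those of the same mRNA class a higher one. Of the subunits with other names, Rack1 had 39.3 and 34.5 TPM and Fau 23.95 and 29.7 TPM. Of 16 other genes whose mRNAs carry the pyrimidine tract, 16 reached 1 TPM, with a median of 23.1 ± 2.10 TPM, led by the elongation factor gene Eef1a1 (225.8 and 211.9 TPM) and the poly(A)-binding protein gene Pabpc1 (151 and 228), with Eef1d lowest (6.98 and 5.88). Proteins of the mitochondrial ribosome, which translates the mitochondrial genome, had 65 of 78 genes at 1 TPM and a median of 3.09 ± 0.0672 TPM, with Mrpl52 (20.4 and 55.8) and Mrpl24 (31.02 and 35.8) highest and Mrps27 (0.90 and 0.32) lowest. RNA polymerase I and its factors, which transcribe ribosomal RNA, had 10 of 11 and a median of 5.25 ± 0.120 TPM, with Taf1d (110.9 and 113.8) and Ubtf (24.95 and 30.4) highest and Polr1e (1.45 and 1.56) lowest. Ribosome assembly factors had 21 of 25 and a median of 5.58 ± 0.799 TPM, with Rrp1 (47.1 and 43.0) and nucleolin, Ncl (29.5 and 26.5), highest and Bysl (0.50 and 0.35) lowest. The regulators of the tract and of ribosome genes had 13 of 14 and a median of 14.8 ± 1.96 TPM, with Larp1 (55.5 and 57.7) and Max, the partner of Myc (47.8 and 46.9), highest, and Mycn at 0 TPM in both.

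The libraries held 18445009 and 17686824 expected counts, 13238 genes had at least 10 in each, and the pair differed by far more than sampling noise (chi-square per degree of freedom 51.5 over those genes and 2.97 over the 82 members), so they were kept as 2 samples. All 10 macrophage markers reached 1 TPM in both, with a median of 56.9 TPM. Markers of B cells, T cells, neutrophil precursors, red cell precursors and fibroblasts had medians from 0 to 0.245 TPM, and 1 of these 25, the heme synthesis gene Alas2, reached 1 TPM in both. By the alignment-free program their medians ran from 0.0135 to 0.763 TPM and 5 of the 25 reached it, 1 for each cell type, among them Cd3d, a chain of the T cell receptor complex, with a mean of 17.8 TPM, against 0.045 TPM by the alignment-based program. In such bulk RNA fewer cells of a type and less RNA per cell cannot be told apart, and the part of other cells in the levels of the ribosomal protein genes was not tested.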

How the data were processed

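Chromatin-bound RNA was measured in 2 libraries of 1 group. The authors deposited expected counts, TPM and a posterior SD of the count per gene and per transcript, made from alignments to the mm10 transcriptome with GENCODE M21, per the deposited description files, with the column names RSEM writes, per the file headers. The deposited estimated counts and TPM of the other transcript table came from the reads without alignment, per the description files, with kallisto's column names, per the file headers. They are called alignment-based and alignment-free here, and no version is stated in the labels or headers used here. The deposited TPM values allow for effective length and sum over all entries, small RNAs included.

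Of 81881 gene entries, 55450 with a gene in GENCODE M21 were used, and the 26431 left out held 0.342% of counts in replicate 1 and 0.294% in replicate 2. Levels are means ± SD over the libraries (n = 2). Ratios of libraries used rounded expected counts with TMM (edgeR 4.0.16, R 4.3.3), or with DESeq2 1.42.0 size factors as an alternative, for scaling alone. In counts simulated for replicate 1 over replicate 2, 200 genes with at least 100 expected counts were changed 4-fold, with Poisson noise alone. The scaling step put 200 of these 200 past 2-fold and 0 of 7559 unchanged genes with at least 100 counts. The real libraries differed by more than such noise (chi-square per degree of freedom 51.5). The simulation thus checks the computation only and gives no error rate for these data. Shared words of 31 bases and coding differences were computed from the GENCODE M21 transcripts, and start windows were read from RefSeq (GRCm38.p6). Intervals are Wilson intervals and cover counting error only. No test was made, since there is no contrast between conditions.

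Named were the 10 highest and 5 lowest members by TPM (and the 5 lowest core genes), the 5 highest and 5 lowest in retained-intron share, the 5 largest library ratios in each direction (from 100 mean counts on), all paralogs, the 5 largest differences between programs, and the 2 highest and the lowest gene of each pathway list. The members and the lists were chosen with earlier results of these data known. Some items are not reported here.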

Additional observations from a re-analysis of the deposited data

How the results depend on the processing

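Over the 9 results recomputed under 54 alternatives, 31 values stayed within the spread between the libraries, or within 1.5-fold for counts, and 23 moved. For the median library ratio the limit was instead the SD over the members divided by the square root of their number. That is a spread over genes of the same libraries, not between libraries. The median level of the members, 16.1 TPM, was 19.1 TPM by the alignment-free program, 17.4 TPM over members at 1 TPM, 18.4 TPM over core members alone (chosen after seeing the data) and 60.1 TPM with TPM taken over protein-coding genes, a change of scale. It lay between 15.5 and 17.1 TPM with a library left out. The log2 ratio of large over small subunit medians had no stable sign, at -0.07 over all members, 0.13 by the alignment-free program and -0.022 by posterior-mean TPM. It was 0.038 over members at 1 TPM and 0.0089 without the paralogs other than Rps27rt, which stayed in. It was -0.0023 by means, 0.13 over core members and from -0.14 to -0.10 with a library left out. The retained-intron share of 49.4% was 52.4% of expected counts, 42.8% by the alignment-free program, 59.98% as a median per gene and 42.0% over members hosting no small nucleolar RNA (chosen after seeing the data), and from 47.9% to 50.9% with a library left out. Its difference between the subunits, 0.31 percentage points, was -4.88 by the alignment-free program, 6.75 by medians per gene, and from -0.27 to 0.90 with a library left out. The median library ratio of 0.03 was 0.092 scaled by library size alone and 0.13 on alignment-free counts. Past 2-fold between the libraries were 5 members without a minimum count (Rpl3l, Rpl39l, Rps27rt, Rpl9-ps6 and Rps12-ps3, each under 40 counts) and 1 on alignment-free counts (Rps12-ps3), in place of 0. A posterior SD over 10% was found in 3 members in place of 0 from a mean of 10 counts on. Past 1.5-fold between the programs were 25 members, in place of 7 past 2-fold. No share over all genes was set beside the counts of members under these alternatives. The causes were not tested. No paired analysis was possible because the libraries form 1 group with nothing to pair against.

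Only the spread of 2 libraries stands behind each SD, with core genes at 16 to 1243 counts per library. Introns outside annotated transcripts are not in the tables, so the retained-intron share covers annotated transcripts only. Reads shared with near-identical copies, and those of overlapping genes on the other strand, cannot be assigned with certainty. The starts shown are those of RefSeq and not of these cells.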
